A study of Homo sapiens with 15 samples.

Results

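The cisplatin-resistant ovarian cancer line CP70, grown after a course of PXD101, was compared with its sensitive parent line A2780 across 19775 genes. The comparison rests on 6 of the 15 expression arrays of the series, chosen by their titles: 3 of CP70 treated with PXD101 and 3 of A2780. PXD101-treated CP70 was exposed to 0.1 µM PXD101 for 48 h and harvested 96 h after the drug was removed. Untreated CP70, with 3 arrays, is set beside it where its values bear on a result. The labels give no drug and no time for A2780. The remaining arrays were CP70 after decitabine (0.1 µM for 48 h) and CP70 after decitabine for 48 h with PXD101 (0.1 µM) for 24 h, with 3 arrays each and the same 96 h after removal. Each line is 1 established line, so the arrays of a group are separate samples of that line and not of separate tumours. The 2 groups compared differ both in line and in drug, and those differences cannot be told apart in this comparison.

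PXD101, also named belinostat, blocks histone deacetylases, the enzymes that take acetyl groups off histones and thereby favour closed chromatin. Cisplatin kills cells through crosslinks in DNA, and resistance is known to arise through lower uptake, binding by thiols and metallothioneins, altered DNA repair, and weaker p53 and apoptotic signalling. Resistant lines also carry fixed changes in DNA copy number and in promoter methylation, a mark laid on cytosines of CG pairs that is linked to silent genes.

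The promoters of 6 genes are shown because these genes head the falls and rises, by size, among those with a window that could be printed. Each runs 5′ to 3′ on the gene's strand and covers 250 bases before to 50 after the RefSeq start (GRCh38.p14), and the capitals mark each CG pair. MEST (chr7:130485925-130486224, plus strand), NRK (chrX:105822289-105822588, plus), BEX1 (chrX:103064122-103064421, minus) and DLX6-AS1 (chr7:97014016-97014315, minus) were lower in PXD101-treated CP70 than in A2780. ZPLD1 (chr3:102434765-102435064, plus) and MECOM (chr3:169663663-169663962, minus) were higher.
MEST: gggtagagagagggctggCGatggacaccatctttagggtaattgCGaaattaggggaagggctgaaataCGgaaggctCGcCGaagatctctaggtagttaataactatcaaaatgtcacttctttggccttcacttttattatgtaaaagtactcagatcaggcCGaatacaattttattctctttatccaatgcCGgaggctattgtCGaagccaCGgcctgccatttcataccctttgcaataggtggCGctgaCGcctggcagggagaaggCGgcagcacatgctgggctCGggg
NRK: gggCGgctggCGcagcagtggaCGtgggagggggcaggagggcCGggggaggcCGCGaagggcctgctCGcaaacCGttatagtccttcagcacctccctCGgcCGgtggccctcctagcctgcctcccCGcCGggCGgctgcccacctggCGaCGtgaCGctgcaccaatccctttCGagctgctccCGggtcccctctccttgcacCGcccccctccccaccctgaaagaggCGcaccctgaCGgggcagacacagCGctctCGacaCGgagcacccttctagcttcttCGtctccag
BEX1: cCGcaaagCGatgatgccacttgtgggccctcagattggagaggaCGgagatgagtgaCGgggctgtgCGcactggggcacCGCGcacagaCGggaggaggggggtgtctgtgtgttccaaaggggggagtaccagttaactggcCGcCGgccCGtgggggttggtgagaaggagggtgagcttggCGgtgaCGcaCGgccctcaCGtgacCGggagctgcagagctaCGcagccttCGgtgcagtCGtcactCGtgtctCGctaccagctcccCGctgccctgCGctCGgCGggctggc
DLX6-AS1: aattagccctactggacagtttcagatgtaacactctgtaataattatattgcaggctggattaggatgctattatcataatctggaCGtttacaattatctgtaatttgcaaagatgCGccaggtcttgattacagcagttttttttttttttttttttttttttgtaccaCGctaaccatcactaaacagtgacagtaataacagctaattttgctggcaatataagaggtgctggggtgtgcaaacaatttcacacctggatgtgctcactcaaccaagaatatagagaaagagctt
ZPLD1: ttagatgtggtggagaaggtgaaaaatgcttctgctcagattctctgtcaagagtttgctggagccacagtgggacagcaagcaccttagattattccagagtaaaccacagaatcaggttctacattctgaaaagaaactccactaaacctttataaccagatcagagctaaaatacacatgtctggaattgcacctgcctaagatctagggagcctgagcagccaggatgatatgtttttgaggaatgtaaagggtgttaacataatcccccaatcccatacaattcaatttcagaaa
MECOM: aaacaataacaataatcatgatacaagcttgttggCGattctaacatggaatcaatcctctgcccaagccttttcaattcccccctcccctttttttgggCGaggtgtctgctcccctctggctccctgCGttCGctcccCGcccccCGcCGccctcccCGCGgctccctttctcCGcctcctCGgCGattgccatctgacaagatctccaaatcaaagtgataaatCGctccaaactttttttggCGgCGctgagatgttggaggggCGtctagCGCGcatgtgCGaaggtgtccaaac
The windows held 13 CG pairs in MEST, 25 in NRK, 25 in BEX1, 3 in DLX6-AS1, 0 in ZPLD1 and 19 in MECOM. Genes with large differences thus had both CG-rich and CG-poor starts. The CG content of a window says nothing about whether it was methylated in these cells, which was not measured here.

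The 3 PXD101 arrays correlated with each other at 0.994 to 0.997 across genes and with the A2780 arrays at 0.957 to 0.961. Within A2780 the correlation was 0.995 to 0.997. The median SD of a gene was 0.117 log2 in PXD101-treated CP70, 0.1501 in untreated CP70 and 0.111 in A2780. Untreated CP70 replicate 2 correlated with the PXD101 arrays at 0.995 to 0.997, and untreated replicates 1 and 3 at 0.973 to 0.984. Actin probe sets at the 3′ and 5′ ends, which part when RNA is degraded, differed by 0.384 to 0.509 log2 (3′ minus 5′) in PXD101-treated CP70, by 0.629 to 0.859 in untreated CP70 and by 0.337 to 0.377 in A2780. The part of this difference in the results was not tested. All levels below are log2 values on the scale of the deposited table, which ran from 2.39 to 14.52, and a gene below 4.34 (the lower quartile over all genes and arrays) lay near the low end, where differences can be understated. The arrays give no count of molecules, and their number limits the precision.

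Of 21 measured ovarian and Müllerian lineage markers, 18 were not called between the lines. MECOM and LGR5 were higher in PXD101-treated CP70 and PAX2 lower, which is 14.3% called against 21.8% of all genes. The Müllerian factor PAX8 was at 7.14 ± 0.16 in PXD101-treated CP70 and 7.08 ± 0.04 in A2780 (SD, n = 3 each). WT1, SOX17 and MUC16, also used as markers of ovarian tumours, had means below the lower quartile in both, and none of the 3 was called. The filament protein vimentin (VIM) averaged 14.33 and 14.21, and E-cadherin (CDH1) 3.64 and 3.56, in PXD101-treated CP70 and A2780. None of 16 leukocyte markers was called in either direction by limma. Both lines therefore had high vimentin and low E-cadherin. Of PAX8, WT1, SOX17 and MUC16, only PAX8 stood above the median of all gene values, 6.28.

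A gene was called when its limma p, adjusted by Benjamini and Hochberg across the 19775 genes, was under 0.05. PXD101-treated CP70 differed from A2780 at 4314 genes, 21.8% of those tested: 2399 were higher (12.1%) and 1915 lower (9.68%). At least 2-fold differences were called at 1390 genes (7.03%), 739 higher (3.74%) and 651 lower (3.29%). Rank product gave 551 higher (2.79%) and 576 lower genes (2.91%), of which limma also called 549 and 576. With each array centred on its median the split turned, to 1918 higher and 2544 lower, or 43.0% of calls higher against 55.6% in the deposited scaling. That centring moved the median difference over all genes to -0.066 log2, against 0.015 in the deposited scaling. Small differences therefore have no firm sign. Differences of at least 16-fold were called at 57 higher and 69 lower genes, and of at least 128-fold at 4 and 7.

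**Figure D1:**
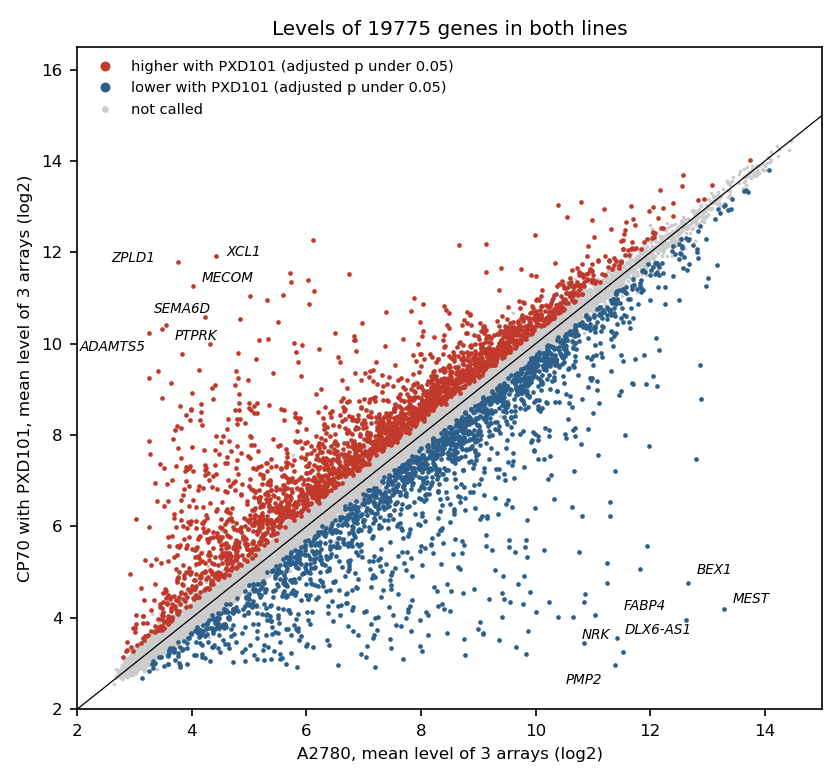
Mean level of each of 19775 genes over 3 arrays of PXD101-treated CP70 (vertical axis, log2) against the mean over 3 arrays of A2780 (horizontal axis, log2); each point is a gene, coloured by its call, and the line marks equal levels. The 2399 higher and 1915 lower genes lie on both sides of the line, and the named genes lie far from it.

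The largest rises joined secreted factors, receptors and regulators. ZPLD1, a zona pellucida-domain protein, was at 11.89, 11.73 and 11.77 in PXD101-treated CP70 and at 3.68, 3.90 and 3.68 in A2780. Its level was thus near the low end of the scale on every A2780 array, and the difference was 8.04 ± 0.10 (SE), or 263.5-fold (adjusted p = 3.77e-16). XCL1, a chemokine that attracts T cells, had 11.94, 11.91 and 11.91 in PXD101-treated CP70, against 4.26, 4.48 and 4.54 in A2780. The groups did not overlap, and the difference was 7.50 ± 0.17 (adjusted p = 4.19e-14). Its near-identical copy XCL2 was not analysed here, so the share of either gene in this signal is uncertain.

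MECOM, a zinc-finger transcription factor that is amplified in many ovarian tumours, was at 11.05, 11.52 and 11.22 in PXD101-treated CP70 and at 4.11, 4.09 and 3.86 in A2780. It rose by 7.25 ± 0.17 (adjusted p = 1.04e-13), and 4 of its 5 probe sets were called higher. ADAMTS5, which cleaves the cartilage proteoglycan aggrecan, had 9.98, 10.42 and 10.34 in PXD101-treated CP70, against 3.28, 3.10 and 3.35 in A2780. All 4 of its probe sets were called higher. The guidance molecule SEMA6D rose by 6.86 ± 0.13 and the receptor tyrosine phosphatase PTPRK by 6.84 ± 0.09. Of the 2 probe sets of PTPRK, 1 was called, and the other differed by 0.26.

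The membrane-binding protein ANXA1 was at 12.09, 12.34 and 12.38 in PXD101-treated CP70, against 4.95, 6.72 and 6.66 in A2780. A2780 replicate 1 lay well below the other A2780 arrays, and all were far below CP70 (6.16 ± 0.32, adjusted p = 9.84e-10). The glycoprotein hormone STC1 rose by 6.04 ± 0.26, TCEAL8, of a family of small X-linked transcription elongation factor-like genes, by 5.998 ± 0.13, and the paired-box factor PAX9 by 5.95 ± 0.20. SP3P, a pseudogene of the transcription factor SP3, rose by 5.98 ± 0.39, and its probes may also read SP3 itself.

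The largest falls were led by MEST, an imprinted gene that encodes a hydrolase-like protein. It was at 4.12, 4.14 and 4.28 in PXD101-treated CP70 and at 13.26, 13.28 and 13.32 in A2780. The difference of -9.10 ± 0.15, or 550.1-fold, was the largest of either sign (adjusted p = 2.92e-15). FABP4, the fatty acid binding protein of adipocytes, had 4.15, 3.84 and 3.83 in PXD101-treated CP70, against 12.59, 12.62 and 12.69 in A2780. PMP2, the fatty acid binding protein of peripheral myelin and a close relative of FABP4, had 2.99, 2.84 and 3.06 in PXD101-treated CP70, against 11.53, 11.18 and 11.45 in A2780. Both were near the low end on every PXD101 array, and they changed by -8.69 ± 0.13 and -8.42 ± 0.16.

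NRK, a kinase of the germinal centre kinase family, was at 3.18, 3.44 and 3.17 in PXD101-treated CP70 and at 11.06, 11.90 and 11.61 in A2780 (-8.27 ± 0.17). LIN28A, an RNA-binding protein that keeps let-7 microRNAs from maturing, had 3.39, 3.45 and 3.50 in PXD101-treated CP70, against 10.66, 11.04 and 10.83 in A2780 (-7.39 ± 0.14). BEX1, an X-linked signalling adaptor of neural tissue, was at 4.56, 4.74 and 5.00 in PXD101-treated CP70 and at 12.54, 12.61 and 12.83 in A2780 (-7.89 ± 0.15). For these 3 genes, as for the 12 falls in general, no array of one group came near the other group. The homeobox gene DLX5 (-6.64 ± 0.16) and DLX6-AS1 (-7.85 ± 0.14), a long noncoding RNA of the same locus, fell together, as did MAB21L2 (-6.98 ± 0.21), OLFM3 (-6.75 ± 0.16) and the microtubule-severing ATPase FIGN (-6.63 ± 0.11). GPX1, the main cytosolic glutathione peroxidase, was at 4.60, 4.57 and 3.87 in PXD101-treated CP70, against 10.59, 10.89 and 11.03 in A2780, an 89.9-fold difference from its single probe set.

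**Figure D2:**
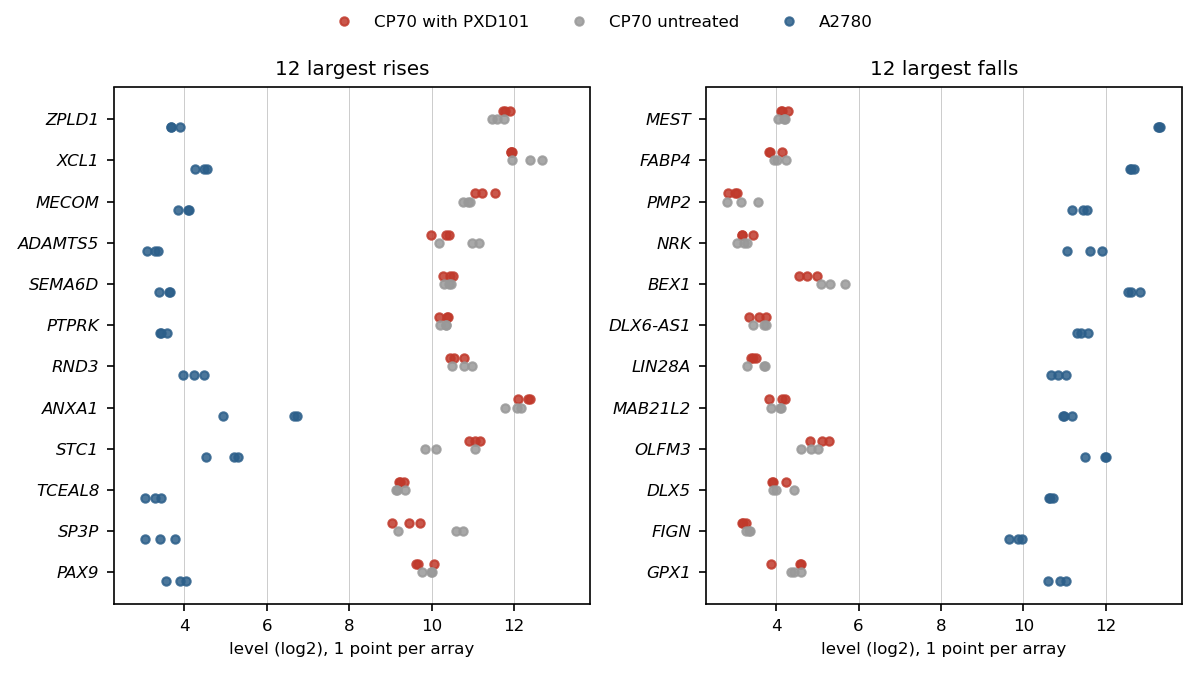
Level (log2, horizontal axis) of the 12 largest rises (left) and 12 largest falls (right) on each array; points are single arrays of PXD101-treated CP70, untreated CP70 and A2780. On every gene the PXD101 and untreated CP70 arrays lie together and apart from A2780.

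Untreated CP70 had these 24 genes at nearly the levels of PXD101-treated CP70. Its mean lay within 0.790 log2 of the PXD101-treated mean at every one of the 24. Limma called 1 of them, BEX1, between PXD101-treated and untreated CP70 (-0.59, adjusted p = 0.0301), against 10.7% of all genes in that comparison. The large differences from A2780 were thus also present in CP70 without PXD101. Since both CP70 groups are set against the same 3 A2780 arrays, their differences from A2780 are not independent of each other.

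Across all genes, limma called 6174 genes (31.2%) between untreated CP70 and A2780, with 3174 higher (16.1%) and 3000 lower (15.2%). Of these, 1017 higher (5.14%) and 912 lower (4.61%) differed by at least 2-fold, 9.75% of all genes, and rank product gave 534 higher (2.7%) and 503 lower (2.54%). Of the 2399 genes higher in PXD101-treated CP70, 1772 were also called higher in untreated CP70 and 627 were not called. Of the 1915 lower, 1578 were also called lower and 337 were not called. No gene was called in opposite directions. The shared A2780 arrays favour the same direction in both comparisons, so these overlaps are a description and not a separate result. A further 1402 genes were called higher and 1422 lower in untreated CP70 without being called in PXD101-treated CP70. The difference between the CP70 groups itself was called at 551 of those 1402 and at 501 of those 1422. It was also called at 187 of the 627 and 90 of the 337. Over all genes it was called at 10.7%. The genes in these counts were picked because their calls against A2780 differed between the CP70 groups. That choice itself favours a difference between those groups, so the counts cannot be weighed against the share over all genes.

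The calls between PXD101-treated and untreated CP70 (2119 genes, 1101 or 5.57% higher and 1018 or 5.15% lower) rest on which arrays enter. Limma called 5736 genes without untreated replicate 2. It called 0 without untreated replicate 1 or 3 or without any 1 PXD101 array, where 3329 to 4900 genes had an unadjusted p under 0.05. Differences of at least 2-fold were called at 378 genes (1.91%), 156 higher (0.789%) and 222 lower (1.12%), and rank product gave 136 higher (0.688%) and 230 lower (1.16%). Every statement below on the difference between the CP70 groups carries this limit.

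The genes of the amino acid and integrated stress response, which ATF4 switches on when protein synthesis is under strain, show the same pattern by array. Of 35 measured members, 3 were higher and 1 was lower in PXD101-treated CP70 than in A2780, where 12.1% and 9.68% of all genes were called. In untreated CP70, 29 of the 35 were higher than in A2780 and 0 lower by limma, where 16.1% of all genes were called higher. The list median was 9.61, 10.48 and 10.18 in PXD101-treated CP70, 11.86, 10.46 and 11.71 in untreated CP70, and 9.55, 9.67 and 9.67 in A2780. Untreated replicate 2 thus lay among the PXD101 arrays, and PXD101 replicate 1 lay next to A2780. Between the CP70 groups 25 of the 35 were called lower with PXD101, where 5.15% of all genes were. Without untreated replicate 2 the count was 33 of 35, where 2401 of all 19775 genes were lower. Taken alone, an alternative chosen after seeing the data, untreated replicate 2 had a list median of 10.46, against 9.55 to 9.67 in A2780. The actin difference given above was 0.859, 0.629 and 0.647 on untreated replicates 1, 2 and 3. Its part in the list medians was not tested.

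PXD101 replicate 1 stood below replicates 2 and 3 at stress genes. DDIT3, the CHOP transcription factor, was at 7.76, 10.02 and 9.44 in PXD101-treated CP70, 10.69, 9.17 and 10.74 in untreated CP70, and 7.36, 7.55 and 7.60 in A2780. PXD101 replicate 1 overlapped neither the other PXD101 arrays nor A2780, and DDIT3 was called with a small margin (1.57 ± 0.52, adjusted p = 0.0422). It was not called when any 1 A2780 array or PXD101 replicate 2 or 3 was left out (adjusted p = 0.0865 to 0.205). ATF3 was at 4.30, 9.42 and 8.97 in PXD101-treated CP70, against 4.96, 5.81 and 6.53 in A2780, and was not called (adjusted p = 0.254). Without PXD101 replicate 1 it was called, with a difference of 3.43 (adjusted p = 0.000785). A gap of at least 2 log2 below both other PXD101 arrays was found at 7 genes on replicate 1, which were ARRDC4, ATF3, GDF15, INHBE, NUPR1, TRIB3 and TXNIP, picked after their values were seen. Replicates 2 and 3 stood that far from both others at 0 genes each. Without replicate 1, 8 members of the stress list were higher than in A2780 and 0 lower by limma. In that fit 2137 of all 19775 genes were higher and 1688 lower.

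The cystine transporter SLC7A11 is on the stress list and on the thiol list. It was at 9.15, 10.62 and 10.28 in PXD101-treated CP70, 11.93, 10.61 and 11.86 in untreated CP70, and 5.40, 6.12 and 5.81 in A2780. It was therefore high in every CP70 array, with a rise of 4.24 ± 0.40 over A2780 (adjusted p = 8.58e-07). CEBPG, a partner of ATF4, rose by 1.04 ± 0.30, and ALDH1L2, a mitochondrial folate enzyme, fell by 1.93 on the log2 scale (SE 0.49). ALDH1L2 lost its call without PXD101 replicate 1 (adjusted p = 0.0513), and CEBPG without any 1 A2780 array or PXD101 replicate 2 or 3 (adjusted p = 0.0506 to 0.112).

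**Figure D3:**
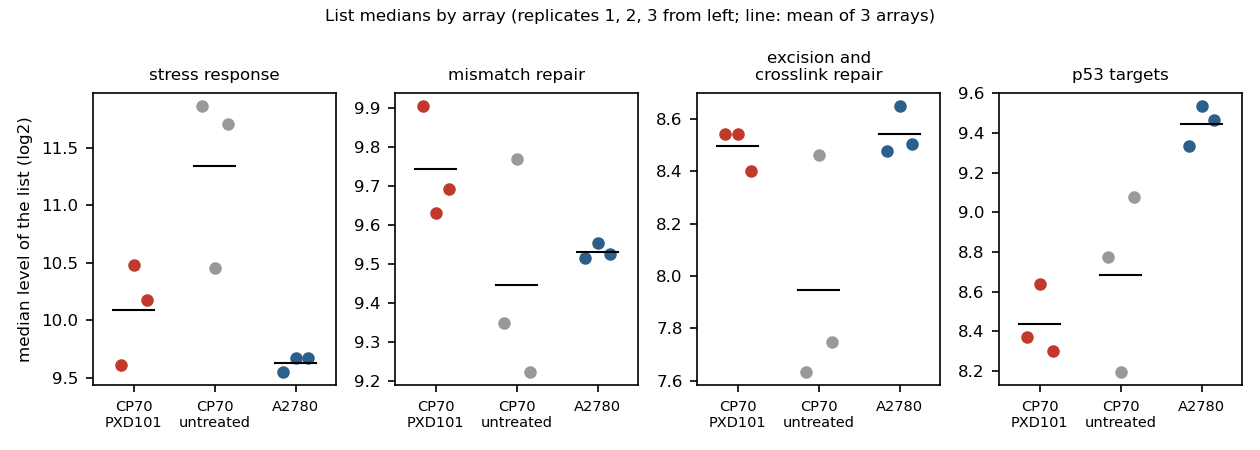
Median level (log2, vertical axis, a separate scale in each panel) of 4 gene lists on each array of PXD101-treated CP70, untreated CP70 and A2780; points are replicates 1, 2 and 3 from left, and the line is their mean. Untreated replicate 2 lies near the PXD101 arrays in the stress and both repair lists, and all CP70 arrays lie below A2780 for p53 targets.

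Genes of thiol chemistry, which binds platinum and detoxifies peroxides, moved both ways. Of 39 measured members of the glutathione and thiol list, 8 rose and 4 fell, where 12.1% and 9.68% of all genes did. The share called was 30.8%, against 21.8% of all genes. The falls were GPX1, GSTO2 (-3.99 ± 0.29) and MGST2 (-1.73 ± 0.10), which conjugate or reduce through glutathione, and GSTM3 (-1.63 ± 0.20). Of 21 platinum and drug transport genes, 5 rose and 6 fell, or 52.4% called. The copper and platinum exporters ATP7A and ATP7B were both lower, by -0.68 ± 0.13 and -0.97 ± 0.13, as was the efflux pump ABCC5 (-0.98 ± 0.11). For ATP7B 1 of 2 probe sets was called, and the other differed by -0.07. For ABCC5 1 of 3 was called, and the highest differed by 0.02. As the mean of its probe sets ATP7A differed by -0.34 and was not called (adjusted p = 0.0959). SLC47A1, an exporter of organic cations, rose by 0.84 ± 0.13.

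Metallothioneins, small cysteine-rich proteins that bind zinc, copper and platinum, were higher. In limma 6 of 10 measured list members rose and 0 fell, where 12.1% and 9.68% of all genes did. The list median difference was 0.71, against 0.015 over all genes. MT1X was at 10.08, 9.99 and 10.15 in PXD101-treated CP70, 8.82, 9.46 and 8.83 in untreated CP70, and 6.58, 7.05 and 6.89 in A2780. Of these 3 groups the PXD101 arrays were the highest and the A2780 arrays the lowest, and the CP70 arrays that had received decitabine, alone or with PXD101, averaged 11.21 and 11.40. The rise over A2780 was 3.23 ± 0.20 (adjusted p = 7.33e-09), and both probe sets were called. MT2A was at 10.66, 10.70 and 10.79 in PXD101-treated CP70, against 7.33, 7.93 and 8.20 in A2780 (2.89 ± 0.20). MT1H rose by 1.72 ± 0.19 and MT1F by 1.31 ± 0.14. Metallothionein genes are nearly identical copies, so the split between members is uncertain. Between PXD101-treated and untreated CP70, 5 of the 10 were called higher, where 5.57% of all genes were, and MT1X rose by 1.03 (adjusted p = 0.021).

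Few genes of DNA mismatch repair were called. In that list, 1 of 19 measured members rose and 0 fell by limma: RFC3, a clamp-loader subunit, by 0.69 ± 0.19 (adjusted p = 0.0155), which was not called without A2780 replicate 3 (adjusted p = 0.0603) or PXD101 replicate 1 (adjusted p = 0.0517). In untreated CP70, 7 of the 19 were lower than in A2780 and 0 higher by limma, where 15.2% and 16.1% of all genes were. Between the CP70 groups 9 were called higher with PXD101, where 5.57% of all genes were. The list median was 9.90, 9.63 and 9.69 in PXD101-treated CP70, 9.35, 9.77 and 9.22 in untreated CP70, and 9.52, 9.55 and 9.52 in A2780. Untreated replicate 2 again lay within the range of the PXD101 arrays.

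In excision, crosslink and recombination repair, 7 of 40 measured members rose and 2 fell, where 12.1% and 9.68% of all genes did. The falls were ERCC5, which cuts 3′ of the lesion (-0.99 ± 0.10), and XPC, which recognises it (-0.61 ± 0.15). REV3L, the catalytic subunit of the translesion polymerase zeta, rose by 1.18 ± 0.15, and the crosslink nuclease subunit MUS81 by 0.61 ± 0.10. For REV3L 1 of 2 probe sets was called, and the other differed by 0.24. In untreated CP70, 5 of the 40 were higher and 19 lower than in A2780, where 16.1% and 15.2% of all genes were. XPC was at 8.45, 8.50 and 8.30 in PXD101-treated CP70, 7.62, 8.20 and 7.65 in untreated CP70, and 8.92, 8.996 and 9.16 in A2780, so that it was lower than A2780 in every CP70 array.

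Targets of p53, the transcription factor activated by DNA damage, were mostly lower. Of 29 measured members, 17 fell, where 9.68% of all genes were lower, and 2 rose, with a list median difference of -0.61. The list median was 8.37, 8.64 and 8.30 in PXD101-treated CP70, 8.77, 8.20 and 9.08 in untreated CP70, and 9.34, 9.53 and 9.46 in A2780, so the lines did not overlap. TP53INP1, which promotes cell death and autophagy, was at 7.46, 7.92 and 7.63 in PXD101-treated CP70, against 9.81, 9.89 and 10.22 in A2780 (-2.30 ± 0.18). TIGAR, which lowers glycolytic flux, had 9.63, 9.83 and 9.79 in PXD101-treated CP70, against 11.55, 11.40 and 11.54 in A2780 (-1.75 ± 0.11). CYFIP2 (-3.15 ± 0.13) and the pore-forming apoptosis effector BAX (-1.21 ± 0.13) also fell. The best-known targets, picked after their values were seen, followed: the cell cycle inhibitor CDKN1A differed by -1.73 ± 0.21 and MDM2, which degrades p53, by -0.70 ± 0.22. PHLDA3, a target that restrains AKT, went the other way, with 8.67, 8.66 and 8.59 in PXD101-treated CP70, against 5.40, 4.91 and 4.96 in A2780 (3.55 ± 0.14). The fall count stayed within 15 to 19 over the alternative limma settings without a 2-fold minimum. With that minimum it was lower, since the list median difference was itself under 2-fold.

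Among apoptosis regulators, 4 of 36 rose and 10 fell, where 12.1% and 9.68% of all genes did. The inflammatory caspase CASP4 was lower (-2.50 ± 0.22), as was TNFRSF10D, a decoy receptor for TRAIL (-2.32 ± 0.26). For CASP4 1 of 2 probe sets was called, and the other differed by 0.09. CASP9, the initiator caspase of the mitochondrial pathway, was higher (0.79 ± 0.11). In the cell cycle and DNA replication list, 13 of 53 rose and 6 fell, or 35.8% called against 21.8% of all genes. CDC20, which activates the anaphase-promoting complex, rose by 0.77 ± 0.11, and the retinoblastoma gene RB1 (-1.09 ± 0.13) and the cyclin CCND2 (-1.43 ± 0.09) fell.

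Some histone deacetylases and genes of the DNA methylation machinery were called. HDAC2, a class I deacetylase, was at 11.15, 10.98 and 11.03 in PXD101-treated CP70 and at 11.14 to 11.22 in untreated CP70. In A2780 it was at 10.18, 10.07 and 10.05, so PXD101-treated CP70 was higher by 0.95 ± 0.08 (limma adjusted p = 2.3e-07). Of its 2 probe sets 1 was called higher, and the other differed by 0.18. HDAC9, a class IIa deacetylase, had 9.49, 10.02 and 9.82 in PXD101-treated CP70, against 8.17, 7.84 and 7.998 in A2780 (1.77 ± 0.16, adjusted p = 6.27e-07), and 3 of its 5 probe sets were called higher. HDAC1 and HDAC3 differed by -0.28 ± 0.14 and 0.23 ± 0.12 and were not called, although HDAC1 was when the untreated arrays were left out (adjusted p = 0.022). The de novo methyltransferase DNMT3A had 7.19, 7.04 and 6.99 in PXD101-treated CP70, against 8.09, 7.95 and 8.21 in A2780 (-1.01 ± 0.22, adjusted p = 0.003), and DNMT1 and DNMT3B were not called (adjusted p = 0.412 and 0.634). For DNMT3A 2 of 3 probe sets were called lower, and the highest differed by 0.30. TET2, which oxidises methylcytosine, fell by 1.39 on the log2 scale. Of 18 histone deacetylases 3 rose, namely HDAC2, HDAC9 and the sirtuin SIRT5, and 1 fell. Of 23 genes of the methylation machinery 1 rose and 3 fell. These lists had 22.2% and 17.4% called, against 21.8% of all genes. Deacetylase inhibitors raise a recurrent set of genes in many cell types. Of 25 such genes measured here 6 rose and 6 fell, where 12.1% and 9.68% of all genes did. Histone H2BC12 was among the falls (-1.58 ± 0.12).

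Of 27 oncofetal and pluripotency-linked genes, 10 fell and 2 rose, where 9.68% and 12.1% of all genes did, and 15 were not called. Besides LIN28A, the falls included LIN28B (-2.52 ± 0.11), the let-7 target TRIM71 (-4.50 ± 0.11) and GPC3, a glypican of fetal liver (-4.58 ± 0.18). For GPC3 1 of 2 probe sets was called, and the other differed by -0.30. TRIM71 was at 3.56, 3.66 and 3.66 in PXD101-treated CP70, against 8.13, 8.01 and 8.23 in A2780, so its level in CP70 was near the low end. Of 32 imprinted genes, 7 fell and 4 rose, or 34.4% called against 21.8% of all genes. Imprinted genes are read from 1 parental copy. DIRAS3, a growth-restraining small GTPase, was at 4.44, 4.13 and 4.59 in PXD101-treated CP70, against 6.96, 8.11 and 8.46 in A2780, and FAM50B fell by 2.29 on the log2 scale.

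HOX genes, which set position along the body axis, were called in both directions. Of 34 measured HOX and DLX genes, 14 rose and 5 fell, where 12.1% and 9.68% of all genes did, and the largest rises were in the HOXB cluster. HOXB7 was at 9.85, 10.31 and 10.08 in PXD101-treated CP70, against 4.99, 5.33 and 5.18 in A2780 (4.91 ± 0.13, adjusted p = 2.53e-13). HOXB6 had 9.06, 9.27 and 8.98 in PXD101-treated CP70, against 4.66, 4.51 and 5.09 in A2780 (4.35 ± 0.15). Of the 2 probe sets of HOXB6, 1 was called, and the other differed by 0.38. HOXB8 rose by 3.19 ± 0.29, HOXB5 by 2.30 ± 0.17, HOXB3 by 1.61 ± 0.20, HOXB9 by 1.18 ± 0.22 and HOXB4 by 0.59 ± 0.12. These 7 genes lie next to each other on chromosome 17. DLX5 and its neighbour DLX6 (-3.07 ± 0.13) were among the falls, and of the HOXC genes HOXC6, picked after its value was seen, differed by -1.22 ± 0.13.

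The X-linked family of BEX, TCEAL and ARMCX genes was divided. Of 19 measured, 5 were higher and 5 lower, where 12.1% and 9.68% of all genes were. ARMCX2 was at 3.68, 4.07 and 4.31 in PXD101-treated CP70, against 10.51, 10.27 and 10.38 in A2780 (-6.37 ± 0.18), and BEX4 fell by 5.39 on the log2 scale. Its relative TCEAL8 was among the largest rises, as given above. Of 38 neural genes, 6 rose and 7 fell, or 34.2% called against 21.8% of all genes. The synaptic adhesion protein NLGN1 rose by 4.92 ± 0.17, and the vesicle calcium sensors SYT1 (-4.03 ± 0.15) and SYT4 (-4.05 ± 0.16) fell.

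Genes on the list of mesenchymal transcription factors and filaments were more often lower than higher. Of its 28 measured members, 14 fell and 5 rose, where 9.68% and 12.1% of all genes did, with a median difference of -0.39. The list median was 9.12, 9.01 and 9.11 in PXD101-treated CP70, against 10.44, 10.26 and 10.30 in A2780. NEFL, the light neurofilament, was at 7.25, 7.64 and 7.54 in PXD101-treated CP70 and 12.96, 12.73 and 12.74 in A2780 (-5.33 ± 0.18). The smooth muscle proteins CNN1 (-3.71 ± 0.20) and CALD1 (-1.39 ± 0.10) fell, as did ACTA2, smooth muscle actin (-1.70 ± 0.24). For ACTA2 1 of 3 probe sets was called, and the highest differed by 0.21. TWIST2, a repressor of epithelial genes, rose by 3.52 ± 0.17 and was near 8.14 in PXD101-treated CP70 and 4.62 in A2780. The fall count stayed within 11 to 14 over the alternative limma settings without a 2-fold minimum.

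Of 68 measured extracellular matrix genes, 24 rose and 17 fell, or 60.3% called against 21.8% of all genes. LAMB1, a laminin chain of basement membranes, was at 7.87, 7.91 and 7.83 in PXD101-treated CP70, against 3.38, 3.14 and 3.22 in A2780 (4.62 ± 0.12). The protease ADAMTS1 rose by 5.61 ± 0.18, while the collagen IV chain COL4A6 fell by 2.59 on the log2 scale. Of 35 integrin and adhesion genes 8 rose and 6 fell, and the heparan sulfate proteoglycans GPC4 (-5.42 ± 0.11), SDC2 (-2.54 ± 0.14) and GPC6 (-2.46 ± 0.14) were among the falls. The adhesion protein NECTIN3 rose by 2.26 ± 0.16. Of 46 cadherin and junction genes 6 rose and 6 fell, or 26.1% called, near the share over all genes. The desmosomal cadherin DSG2 was at 8.95, 8.98 and 9.16 in PXD101-treated CP70, against 4.19, 4.44 and 4.45 in A2780, and the classical cadherins CDH10 (-3.76 ± 0.13) and CDH12 (-3.93 ± 0.14) fell. Clustered protocadherins had 4 of 31 higher and 3 lower, near the shares over all genes (12.1% and 9.68%), with differences up to 1.40 ± 0.16 (PCDHB14), and these copies are alike enough for probes to be shared. The fibroblast matrix proteins DCN and LUM were higher (3.16 ± 0.17 and 2.75 ± 0.16). For DCN 4 of 7 probe sets were called higher, and the lowest differed by -0.14. For LUM 1 of 2 was called, and the other differed by 0.24. In the list of 18 fibroblast and endothelial markers 3 rose and 2 fell, or 27.8% called.

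Genes of growth factor pathways were called in both directions. Of 64 receptor tyrosine kinases and ligands, 12 rose and 19 fell, where 12.1% and 9.68% of all genes did. The ligand PDGFD was at 4.32, 4.52 and 4.21 in PXD101-treated CP70, against 10.33, 10.07 and 10.27 in A2780 (-5.87 ± 0.12), and the ephrin receptor EPHA7 fell by 4.13 on the log2 scale. Among insulin-like growth factor binding proteins, IGFBP6 was at 10.20, 10.70 and 10.51 in PXD101-treated CP70 and 5.57, 5.50 and 5.47 in A2780, and IGFBP2 at 6.72, 6.68 and 6.24 in PXD101-treated CP70 and 10.88, 11.44 and 11.59 in A2780. The 2 binding proteins thus differed in opposite directions, by 4.96 ± 0.13 and -4.76 ± 0.18. In the TGF-beta and BMP pathway, 13 of 40 rose and 8 fell, or 52.5% called against 21.8% of all genes. The ligand BMP5 rose by 3.73 ± 0.13 and the receptor TGFBR2 by 1.33 ± 0.12. For TGFBR2 1 of 2 probe sets was called, and the other differed by 0.50. The ligand TGFB2 (-3.60 ± 0.24) and the follistatin-like secreted protein FSTL1 (-1.89 ± 0.10) fell. In the WNT pathway, 8 of 39 rose and 11 fell, or 48.7% called. The noncanonical ligands WNT5A and WNT5B moved apart (2.11 ± 0.17 and -2.11 ± 0.15), and the receptor FZD6 and the secreted DKK3 were lower. Of 25 MAPK feedback genes, 4 rose and 3 fell, or 28.0% called. The falls included DUSP6, the ERK phosphatase (-2.28 ± 0.20), and SPRY4, an inhibitor of receptor signalling (-1.41 ± 0.18). JUN was at 7.52, 9.01 and 8.48 in PXD101-treated CP70, 9.81, 8.85 and 9.92 in untreated CP70, and 5.49, 5.77 and 5.57 in A2780.

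Immune genes were divided, and A2780 replicate 1 weighs on their counts. Of 46 interferon-stimulated genes, 9 rose and 14 fell, where 12.1% and 9.68% of all genes did. CMPK2, a mitochondrial nucleotide kinase, was at 8.42, 8.32 and 8.34 in PXD101-treated CP70, 6.37, 8.43 and 6.35 in untreated CP70, and 4.23, 4.58 and 5.07 in A2780 (3.73 ± 0.40). RSAD2, the antiviral enzyme viperin, rose by 1.79 ± 0.21, and UBE2L6, the conjugating enzyme for ISG15, fell by 1.56. Of 30 antigen presentation genes, 9 fell and 2 rose, or 36.7% called against 21.8% of all genes. The immunoproteasome subunit PSMB9 was at 6.79, 7.003 and 6.99 in PXD101-treated CP70, against 7.58, 9.51 and 9.93 in A2780, and PSMB8 at 4.16, 3.93 and 4.30 in PXD101-treated CP70, against 4.68, 6.26 and 7.11 in A2780. A2780 replicate 1 lay nearest CP70 at both. Without it, 20 interferon-stimulated and 14 antigen presentation genes fell, where 1788 of all 19775 genes did. Without A2780 replicate 3 the counts were 8 and 5, where 1556 of all genes fell. Without A2780 replicate 2 they were 10 and 5, where 1579 fell. Of 36 chemokine, cytokine and NF-kB genes, 7 rose and 3 fell, or 27.8% called. CCL2, which attracts monocytes, was higher by 1.24 ± 0.17.

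Of glycolysis and hypoxia genes 26.7% were called, and of sterol and fatty acid synthesis genes 9.09%. Endoplasmic reticulum genes had 23.1% and heat shock genes 10.0%. Over all genes 21.8% were called, so these lists lay near or below that share. Fatty acid binding and lipid handling had 54.2%. Of 30 glycolysis and hypoxia genes 2 rose and 6 fell. The vasodilator peptide ADM rose by 1.90 ± 0.12, and the glucose transporters SLC2A1 (-0.81 ± 0.11) and SLC2A3 (-2.06 ± 0.33) fell. Of 22 sterol and fatty acid synthesis genes 0 rose and 2 fell by limma, SREBF2 (-0.47 ± 0.14) and IDI1 (-0.43 ± 0.14). SREBF2 lost its call without A2780 replicate 2 or 3 or PXD101 replicate 3 (adjusted p = 0.0861 to 0.103), and IDI1 when any 1 of the 6 arrays other than A2780 replicate 1 was left out (adjusted p = 0.0696 to 0.134). Of 24 genes of fatty acid binding and lipid handling 7 rose and 6 fell: the scavenger receptor CD36 was at 8.38, 8.91 and 8.84 in PXD101-treated CP70, against 4.99, 5.36 and 4.66 in A2780, while APOE fell by 1.71. Of 26 endoplasmic reticulum genes 1 rose and 5 fell, including the disulfide oxidases ERO1A (-1.69 ± 0.09) and ERO1B (-2.44 ± 0.16). Among 20 heat shock genes, HSPB1, the small chaperone HSP27, was at 5.46, 5.47 and 5.78 in PXD101-treated CP70, against 11.81, 11.81 and 12.21 in A2780 (-6.37 ± 0.15). Its relative CRYAB rose by 1.81 ± 0.18, and no other member was called. Of 14 keratins and squamous markers, with 14.3% called, KRT18 rose (1.29 ± 0.19) and SFN fell (-0.76 ± 0.18). Of 21 ovarian and Müllerian markers, MECOM and LGR5 rose and PAX2, the kidney and oviduct factor, fell (-5.41 ± 0.17).

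**Figure D4:**
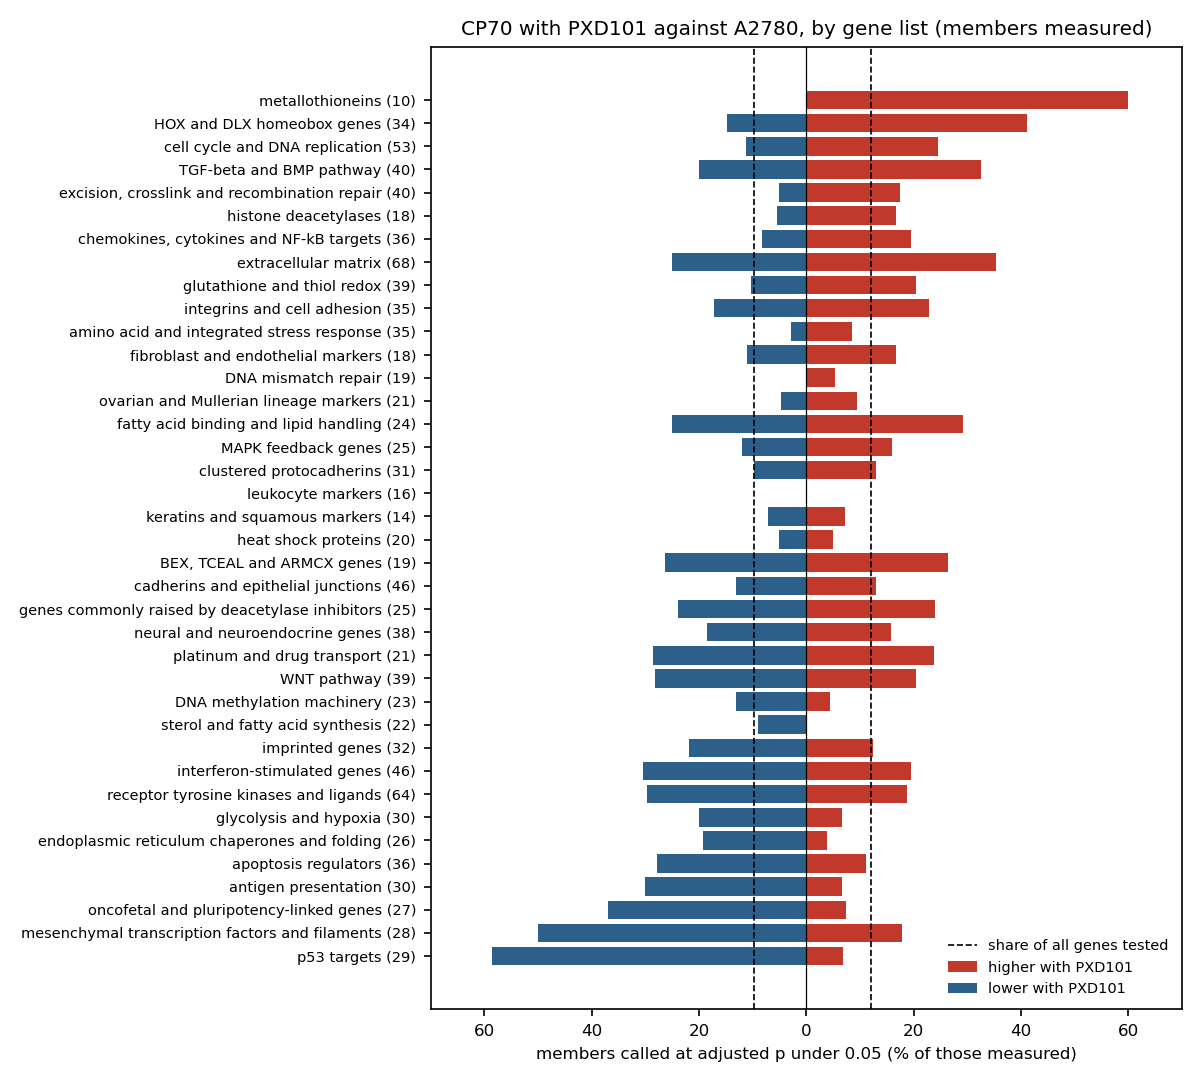
Share of the measured members of each of 38 gene lists that were higher (red, to the right) or lower (blue, to the left) in PXD101-treated CP70 than in A2780, in % of those measured; the number measured stands in brackets. The dashed lines mark the shares over all 19775 genes, 12.1% higher and 9.68% lower.

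Some genes were at the low end in one line and high in the other. Low meant under 4.34, that lower quartile, and high meant over the median of 6.28, each on all 3 arrays. By this rule 52 genes were low in PXD101-treated CP70 and high in A2780, and 45 were high in PXD101-treated CP70 and low in A2780. Of the 52, 46 were also low on all 3 untreated CP70 arrays, and of the 45, 39 were also high there. Among the promoters in the RefSeq table, a CG-rich window was taken as one with over 50% G and C and a ratio of observed to expected CG pairs over 0.6. Such windows made up 15 of 37 promoters of the genes low in PXD101-treated CP70 (40.5%) and 20 of 35 of those low in A2780 (57.1%). Over all measured genes with a window the share was 64.2%. It was 85.4% for genes above the median in both groups and 33.1% for those below the lower quartile in both.

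Some of the largest falls were less deep in CP70 that had received decitabine, which traps DNA methyltransferases. MEST averaged 4.18 ± 0.09 in PXD101-treated CP70, 6.71 ± 0.20 with decitabine, 6.91 ± 0.37 with both drugs and 13.29 ± 0.03 in A2780 (SD, n = 3 each). BEX1 was at 4.77 ± 0.22 with PXD101, 8.16 ± 0.19 with decitabine and 12.66 ± 0.15 in A2780. GPX1 was at 4.35 ± 0.41 with PXD101, 10.02 ± 0.09 with decitabine and 10.84 ± 0.23 in A2780. NRK, with a CG-rich window, stayed at 3.26 ± 0.15 with PXD101 and 3.25 ± 0.18 with decitabine, against 11.52 ± 0.43 in A2780. Of the 12 largest falls, 4 had all decitabine arrays above all PXD101 arrays by a mean of at least 1 log2, namely MEST, BEX1, GPX1 and MAB21L2. The 12 were chosen for low values with PXD101, and 9 lay below the lower quartile on all 3 PXD101 arrays. The same count was not made over all genes, so the 4 of 12 cannot be weighed. Of the 52 genes, 40 were below the lower quartile on all 3 decitabine arrays and 3 above the median. These values are given side by side, and no test was made between the PXD101 and decitabine groups.

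Some neighbouring genes differed in the same direction. Taking the measured genes in RefSeq order, 60 runs of at least 4 neighbours were called the same way, 37 higher and 23 lower, with 289 of the 4314 called genes in all. The longest was the HOXB run of 10 genes on chromosome 17, from HOXB3 to LINC02086, which also holds HOXB-AS3 (2.53 ± 0.26) and a probe set annotated to the MIR10A locus. Next came 9 genes lower on chromosome 8, from ZNF704 to SNX16, among them FABP4 and PMP2. PAG1, an adaptor that recruits the kinase CSK, was at 3.54, 4.20 and 3.96 in PXD101-treated CP70, against 9.22, 8.95 and 8.91 in A2780, and FABP5 differed by -1.04 ± 0.18. The run also held SNX16 (-3.51 ± 0.31), CHMP4C (-1.78 ± 0.25), IMPA1 (-0.76 ± 0.14) and ZFAND1 (-0.54 ± 0.17). ZFAND1 lost its call without A2780 replicate 2 or 3 or PXD101 replicate 1 or 3 (adjusted p = 0.058 to 0.153). The members of the run thus ranged from 1.46-fold to 412.8-fold lower.

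The run of 7 genes higher on chromosome 6, from PPIL4 to LRP11, was more even. Its differences were 0.94 to 1.85, with NUP43, a nuclear pore subunit, at 10.55, 10.54 and 10.53 in PXD101-treated CP70 and 9.49, 9.54 and 9.48 in A2780. The Hippo kinase LATS1 rose by 1.12 ± 0.16 and PCMT1, which repairs damaged aspartyl residues, by 1.22 ± 0.09. In the run of 7 on chromosome 13, TNFRSF19 was at 10.51, 10.58 and 10.54 in PXD101-treated CP70, against 4.81, 4.70 and 5.01 in A2780 (5.70 ± 0.10), and the other members rose by 0.69 to 2.48. LINC00327, a member of this run, lost its call without A2780 replicate 1 or 2 or PXD101 replicate 3 (adjusted p = 0.0553 to 0.0903), which would break the run. The run of 6 on chromosome 5 held CAMK4 (3.76 ± 0.16), EPB41L4A (3.61 ± 0.11) and NREP (1.75 ± 0.09).

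By chromosome, the share of higher genes was largest on chromosome 6, where 229 of 1089 genes were higher (21.0%) and 80 lower (7.35%). On chromosome 4, 18.8% were higher. Chromosome 13 had the largest share of lower genes, 22.7%, against 9.23% higher, and RB1 lies there. With each array centred on its median, chromosome 6 had 18.4% higher and 9.55% lower, and chromosome 13 had 7.23% higher and 24.7% lower. Chromosome 19 had 7.2% higher and 12.1% lower, and 5.53% and 17.1% after that centring. DNA copy number was not measured in these samples, and its part in these shares was not tested.

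**Figure D5:**
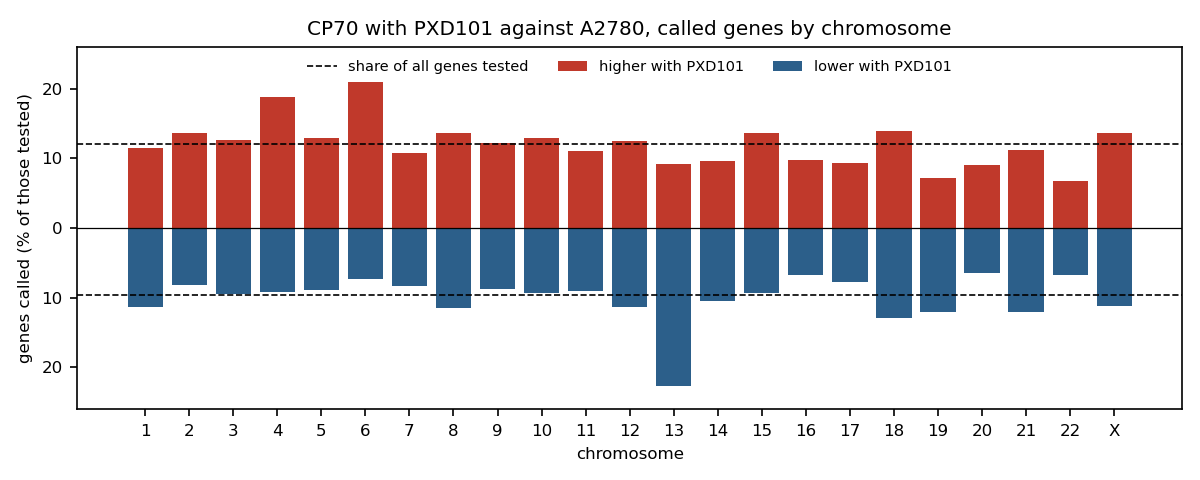
Share of the genes of each chromosome that were higher (red, above 0) or lower (blue, below 0) in PXD101-treated CP70 than in A2780, in % of the genes tested there; the dashed lines mark the shares over all genes. Chromosome 6 reaches 21.0% higher and chromosome 13 reaches 22.7% lower.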

How the data were processed

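RNA was amplified and hybridised to Affymetrix expression arrays, per the labels' protocols, in 5 groups of 3 biological replicates. The authors deposited log2 values for 54675 probe sets on 15 arrays, and the submitters' processing notes name R 2.10.1 and affy. The sources used here give neither background correction, normalization and summarization nor a scan date. Besides 62 control probe sets, the platform annotation gave 1 symbol for 41091 probe sets, several for 1801 and none for 11721. Entrez IDs matched 41037 to RefSeq. The probe set with the highest 15-array mean stood for its gene, which left 19775 genes.

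Group means were fitted with limma 3.58.1 (R 4.3.3) on all 15 arrays, so that 5 groups shared 1 spread per gene, with Benjamini-Hochberg adjustment over all genes and calls at 0.05. Errors beside differences are standard errors. Rank product, the test the design text names, used 9 pairwise differences and 100 permutations at under 5% false positives. Both were tested on simulated data with 200 changed genes. Tables used Python 3.11.15, pandas 2.3.3 and numpy 2.4.6. Promoters came from RefSeq (GRCh38.p14).

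The comparison, the 38 lists (1266 genes, 1139 measured) and the alternatives were chosen with earlier results of these data known. Named genes were the 12 largest rises and falls that were called and had no overlap of arrays, up to 4 called members per list with the smallest p, the drugs' enzyme targets, the 6 largest rises and falls against untreated CP70, and members of the 5 longest runs. Some genes of the rule are not analysed here. Alternatives were other scalings, probe set choices, array weights, smaller fits, a 2-fold minimum, a replicate block and leaving out each array.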

Additional observations from a re-analysis of the deposited data

Results flagged for a closer look

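The difference between the CP70 groups is the test of whether treated and untreated CP70 depart from A2780 to different extents. It was called at 2119 genes. The 12 genes below were taken from those as the 6 largest rises and 6 largest falls, so their call was part of the choice. In the group means of the rises, TMT1A was higher with PXD101 than without by 1.88, NES by 1.85, RAB26 by 1.79, VASH2 by 1.70, TTC12 by 1.62 and PEG10 by 1.58 log2. PEG10, an imprinted gene of retroviral origin, was at 8.10, 8.08 and 8.03 in PXD101-treated CP70, 5.78, 7.75 and 5.92 in untreated CP70, and 8.61, 8.78 and 8.59 in A2780. Nestin (NES), a filament of neural progenitors, was at 9.11, 9.45 and 9.18 in PXD101-treated CP70, 6.27, 8.73 and 7.19 in untreated CP70, and 10.95, 10.94 and 11.08 in A2780. On each of these rises untreated replicate 2 lay nearer the PXD101 arrays than untreated replicates 1 and 3 did.

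The falls with PXD101 were CALCB (-5.20), NIBAN1 (-3.78), TAC1 (-3.78), S100P (-3.66), ATF3 (-3.53) and INHBE (-3.36). CALCB, a calcitonin gene-related peptide, was at 4.85, 5.47 and 6.02 in PXD101-treated CP70, 11.76, 8.37 and 11.81 in untreated CP70, and 4.58, 4.25 and 5.50 in A2780. NIBAN1, a stress-induced protein, was at 5.47, 7.04 and 7.18 in PXD101-treated CP70, 11.01, 8.92 and 11.11 in untreated CP70, and 3.57, 3.30 and 3.33 in A2780, so every CP70 array lay above A2780. INHBE, an inhibin chain raised by stress, was at 3.34, 6.61 and 6.47 in PXD101-treated CP70 and 9.65, 7.47 and 9.37 in untreated CP70. All 12 lost their call in a fit of these 6 arrays alone or when untreated replicate 1 or 3 or any 1 PXD101 array was left out, and kept it without untreated replicate 2.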

How the results depend on the processing

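Against A2780, PXD101-treated CP70 had 3482 to 3825 genes called when 1 of the 6 arrays was left out. The count was 8036 (4173 higher, 3863 lower) over every probe set, 1390 (739, 651) at 2-fold or more and 1127 (551, 576) by rank product. For PXD101-treated against untreated CP70 it was 8634 (4580, 4054) with array weights, 3203 over every probe set (1584 lower), 378 (156, 222) at 2-fold or more, 366 (136, 230) by rank product and 0 to 5736 with 1 array left out (0 to 3335 higher, 0 to 2401 lower). Limma gave 0, 0 and 0 with only those 6 arrays, where 4111 genes had an unadjusted p under 0.05, and with untreated replicate 2 alone, where 918 had. For untreated CP70 against A2780 it was 10162 (5015, 5147) with array weights, 11439 (5662, 5777) over every probe set, 1929 (1017, 912) at 2-fold or more, 1037 (534, 503) by rank product and 3369 (1912, 1457) with untreated replicate 2 alone, where the lone array was assumed to vary like the others. TTC12 reversed against A2780 as the mean of its probe sets (-0.0479, not called). Numbered replicates did not deviate together (correlations -0.078 to 0.007 between PXD101-treated CP70 and A2780, and -0.321 to 0.167 with untreated CP70), and the replicate block gave 4009 and, against untreated CP70, 1198 (581, 617). The block ended the calls of DDIT3, IDI1, TAC1 and ZFAND1 against A2780 (adjusted p = 0.0511 to 0.0559). Of 197 named genes, 190 to 197 stayed on their side of the threshold against A2780 in each gene-level limma setting that tested them all. This leaves out the 2-fold minimum and rank product. A 2-fold minimum also ends the calls of smaller differences, such as that of HDAC2 (1.938-fold). ATP7A, CEBPG, CREB3L2, IDI1, RFC3 and SREBF2 lost their calls as the mean of their probe sets.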
